A study of Mus musculus with 6 samples.

Results

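The lysosome and v-ATPase genes described here are a fixed list of 46 genes for enzymes, membrane proteins and regulators of the lysosome and for subunits of its proton pump. The list was given by name, with no threshold on expression but with earlier results of these data known. A probe set annotated to exactly 1 gene was found for 43 of the 46, among 12393 genes measured in all, and a gene with several such probe sets was read from the brightest. Arsb, a sulfatase, Cd63, a tetraspanin of late endosomes and lysosomes, and Atp6v0d2, a v-ATPase subunit abundant in osteoclasts, had none and have no value here.

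The study, on cohesin in acute myeloid leukaemia, measured RNA from mouse bone marrow on 6 Affymetrix arrays. Lineage-positive cells were removed from the marrow of 6 to 8 week C57/BL6 mice, and the rest were infected for 24 h with a lentivirus carrying an empty vector, Rad21 shRNA1 or Rad21 shRNA2, with 2 arrays in each group. All 3 groups passed through puromycin selection at 1 µg/mL, sorting of live cells, plating at 10000 cells/mL in methylcellulose with cytokines and RNA extraction after 7 days. The labels do not say whether replicates came from separate animals or cultures, so p-values rest on the spread among these arrays alone, and that spread may be technical. The RNA is from a mixed culture, and fewer cells of a type cannot be told apart from less RNA per cell.

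Rad21, the cohesin subunit that both shRNAs target, read 11.14 and 10.49 in empty-vector replicates 1 and 2 (log2 intensity), 9.63 and 9.14 with shRNA1, and 9.50 and 9.11 with shRNA2. All 4 shRNA arrays lay below both controls, by 1.47 ± 0.26 on the log2 scale on average (standard error of the fit here and below; limma adjusted p = 0.0558). Empty-vector replicate 1 stood apart in RNA quality. For Gapdh its 3′ control exceeded its 5′ control by 2.42 log2 units and for Actb by 2.55, whereas the other 5 arrays had gaps from -0.08 to 0.02 and from 0.22 to 0.33. Its part in the results was not tested. For the lysosome and v-ATPase genes, the counts of called genes against empty vector are given below for each control array as well. Those of the other pathway and marker lists mostly rest on both control arrays together, and their dependence on the control array is not given in full. The comparison of shRNA1 with shRNA2 uses neither control array as a reference.

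Lysosomes break down proteins, glycans and lipids delivered by endocytosis, phagocytosis and autophagy. Their hydrolases work at acidic pH, which the v-ATPase maintains: its peripheral V1 sector hydrolyses ATP and its membrane V0 sector carries protons into the lumen. Many lysosomal genes are direct targets of the transcription factor TFEB and its relatives, which bind an E-box core, CACGTG, favoured in the palindrome TCACGTGA. Macrophages and osteoclasts are rich in lysosomes, and neutrophil precursors package related enzymes into granules.

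The E-box was searched on both strands of RefSeq promoter windows of 300 bases, from 250 before to 50 after a gene's start, in build GRCm38.p6. Windows were given for 38 of the 46 genes, 45 windows in all. CACGTG lay in 11 of these windows, 24.4%, against 7.15% of all windows in the table and 9.11% of those of the genes tested on the arrays. The longer TCACGTGA, which contains the shorter motif, lay in 6 windows, 13.3%, against 0.974% and 1.46%. A match is a description of the sequence, not a measured binding site. The 11 genes were Ctsa, Ctsd, Ctsf, Ctsl, Lgmn, Gla, Glb1, Lamp1, Mcoln1, Atp6v0d1 and Atp6v1a, with 18 matches in all, 17 of them upstream of the start. The stretches below show the 6 genes with the longer form, followed by Lgmn and Ctsl, whose array values differed most between the 2 shRNAs. Each is 30 bases, 5′ to 3′ on the gene's strand, with the E-box core in capitals. In the first 6 the core is preceded by t and followed by a, which completes the longer form.
Ctsa, chr2:164833749-164833778, plus strand: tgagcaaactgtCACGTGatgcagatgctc
Ctsd, chr7:142387908-142387937, minus strand: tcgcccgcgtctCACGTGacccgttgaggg
Gla, chrX:134601182-134601211, minus strand: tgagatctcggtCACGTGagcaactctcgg
Mcoln1, chr8:3500462-3500491, plus strand: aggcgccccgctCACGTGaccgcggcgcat
Atp6v0d1, chr8:105566050-105566079, minus strand: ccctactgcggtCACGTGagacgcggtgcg
Atp6v1a, chr16:44139373-44139402, minus strand: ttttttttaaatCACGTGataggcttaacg
Lgmn, chr12:102439124-102439153, minus strand: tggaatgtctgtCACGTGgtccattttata
Ctsl, chr13:64370739-64370768, minus strand: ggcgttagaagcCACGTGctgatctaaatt

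In the shown stretches the core began 12 bases before the start in Ctsa, 98 in Ctsd, 194 in Gla, 45 in Mcoln1, 3 in Atp6v0d1, 131 in Atp6v1a, 49 in Lgmn and 236 in Ctsl. Gla and Ctsa each held the longer form at 2 positions, and Lamp1 held the core at 4 positions within 61 bases of its start. No window was given for Ctsb, Ctsh, Asah1, Npc1, Atp6v0d2, Atp6v1b2, Atp6v1c1 and Atp6v1h. Between the shRNAs, the 11 genes with a match spanned nearly the whole range of the list, from 0.041 for Atp6v0d1 to 1.57 for Lgmn (shRNA1 minus shRNA2, log2).

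**Figure D1:**
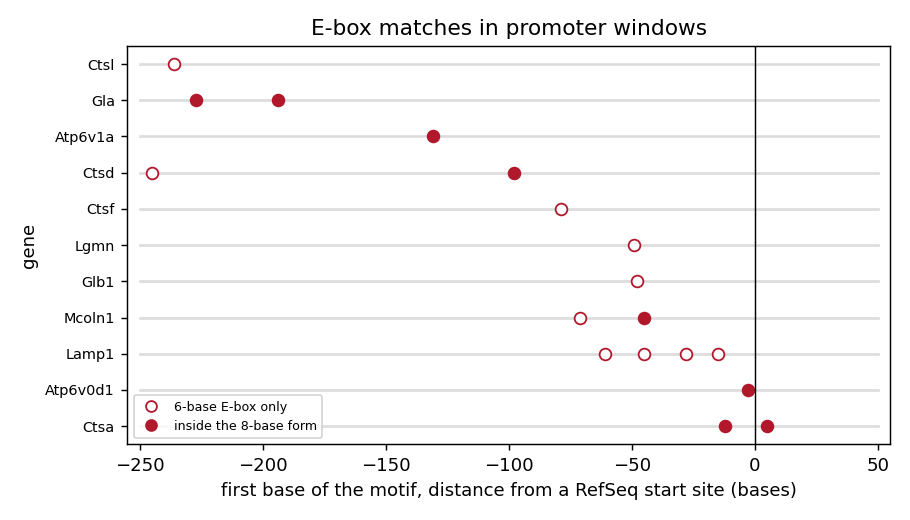
Positions of the CACGTG core in the promoter windows of the 11 genes that hold it, as the distance in bases of the motif's first base from a RefSeq start site; negative values lie upstream. Filled points are cores inside the longer TCACGTGA, and open points are the shorter core alone; 17 of the 18 matches lie upstream, and those of Gla and Ctsl and 1 of the 2 in Ctsd lie farther than 190 bases from the start.

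These genes were among the brighter features of the arrays. The mean over 6 arrays lay above the median of all genes (7.18, log2 intensity) for 41 of the 43 and above the 75th percentile of all genes (8.88) for 38. Ctsf and Acp5 lay below the median. Replicates were close with both shRNAs and far apart in the controls: the median absolute difference between replicates was 0.085 log2 units with shRNA2, 0.16 with shRNA1 and 0.54 with empty vector, beside 0.15, 0.17 and 0.33 for all genes, and 13 genes differed by more than 1 between the control arrays.

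With shRNA2 the lysosome and v-ATPase genes stood almost uniformly below their level with shRNA1. In 40 of the 43, both shRNA2 arrays lay below both shRNA1 arrays, and in none above, whereas 17.7% of all genes lay below and 23.9% above in this way. Glb1, Smpd1 and Atp6v0d1 were the 3 whose shRNA arrays overlapped. The fitted difference was positive for 42 of the 43, Smpd1 at -0.068 being the exception, with a median of 0.31, while 45.0% of all genes were positive, with a median of -0.021. The differences ran up to 1.57 for Lgmn and 1.49 for Ctsl. No single gene passed the test (limma, adjusted over all 12393 genes), where 0.0% of all genes passed. At an unadjusted p under 0.05 there were 7 of the 43, against 4.89% of all genes.

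The spread in that test comes partly from the discordant control arrays, and a fit of the 4 shRNA arrays alone, added after the data were seen, does not use them. It also called none of the 43 (0.355% of all genes were called higher with shRNA1). At an unadjusted p under 0.05 it had 24 of the 43 higher with shRNA1 and none lower, against 6.9% of all genes higher. Lgmn came closest to the threshold, with an adjusted p of 0.0503, followed by Ctsh with 0.0643 and Ctsl with 0.0704; over all alternatives the adjusted p for this contrast ran from 0.0256 to 1 for Lgmn. Under quantile normalization, median centring or when a gene's probe sets were averaged, 38 of the 43 lay lower with shRNA2 on both arrays and 42 were again higher with shRNA1 on average. Probe sets of these genes other than the brightest lay lower with shRNA2 in 27 of 37 and higher in none, against 17.4% of all such probe sets lower.

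**Figure D2:**
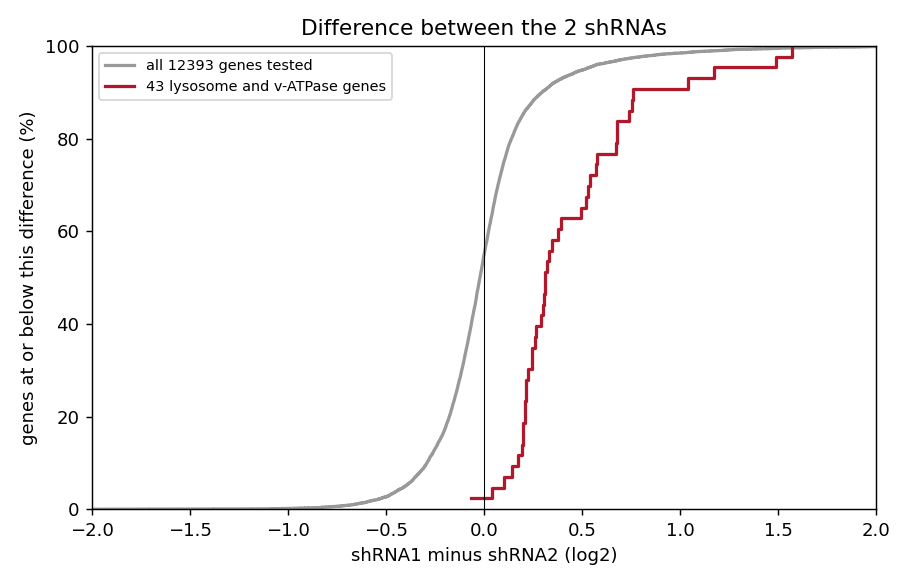
Cumulative share (y axis, percent) of the 43 lysosome and v-ATPase genes (red) and of all 12393 genes tested (grey) at or below each difference between the shRNAs (x axis, shRNA1 minus shRNA2, log2). The red curve lies to the right of the grey one, with medians of 0.31 and -0.021.

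Against empty vector, 3 of the 43 genes fell with shRNA2 and none rose (limma, adjusted p under 0.05), where 1.95% of all genes fell. The 3 were Lgmn and Ctsb, both cysteine proteases, and Atp6v1c1, a V1 subunit. Of all 43, 32 had a negative difference with shRNA2, with a median of -0.38, against 51.6% of all genes and a median of -0.011. At an unadjusted p under 0.05 there were 15, against 17.8% of all genes. Both shRNA2 arrays lay below both controls in 25 genes and above both in none, where 22.6% and 21.6% of all genes did so. The separation below both controls was absent on a further probe set of Ctsb, Gla, Psap, Gm2a, Npc2, Lamp2, Laptm5, Mcoln1, Atp6v1c1, Atp6v1d and Atp6v1e1. It was kept on the further probe sets of Atp6v1b2 and Grn.

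With shRNA1, none of the 43 passed the test, where 0.234% of all genes did, and 2 had an unadjusted p under 0.05, against 9.3% of all genes. The median was -0.054, near the -0.033 of all genes. That result was split between the controls. The median with shRNA1 was 0.23 against replicate 1 alone and -0.22 against replicate 2 alone, beside -0.079 and 0.0097 for all genes. Counts for each control array are given further below with the shares of all genes. Both shRNA1 arrays lay below both controls in 11 genes and above in 6 (Ctsc, Gusb, Neu1, Lamp1, Scarb2 and Atp6v1a), where 19.5% and 15.2% of all genes did so. For the mean of both shRNAs none passed, with 2.13% of all genes past the threshold, and 10 had an unadjusted p under 0.05, against 16.7%. Its median was -0.28, beside -0.023 for all genes. That median was -0.039 against replicate 1 alone and -0.35 against replicate 2 alone, beside -0.069 and 0.018 for all genes. All 4 shRNA arrays lay below both controls in 11 genes: Ctsb, Lgmn, Psap, Smpd1, Npc2, Lamp2, Laptm5, Atp6ap1, Atp6v1c1, Atp6v1d and Atp6v1e1. None had all 4 above, against 13.6% of all genes below and 11.5% above. The separation from both controls was absent on a further probe set of Ctsb, Psap, Npc2, Lamp2, Laptm5, Atp6v1c1, Atp6v1d and Atp6v1e1. The comparisons with empty vector share the control arrays, and the test of whether the shRNAs differ is the direct comparison above.

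**Figure D3:**
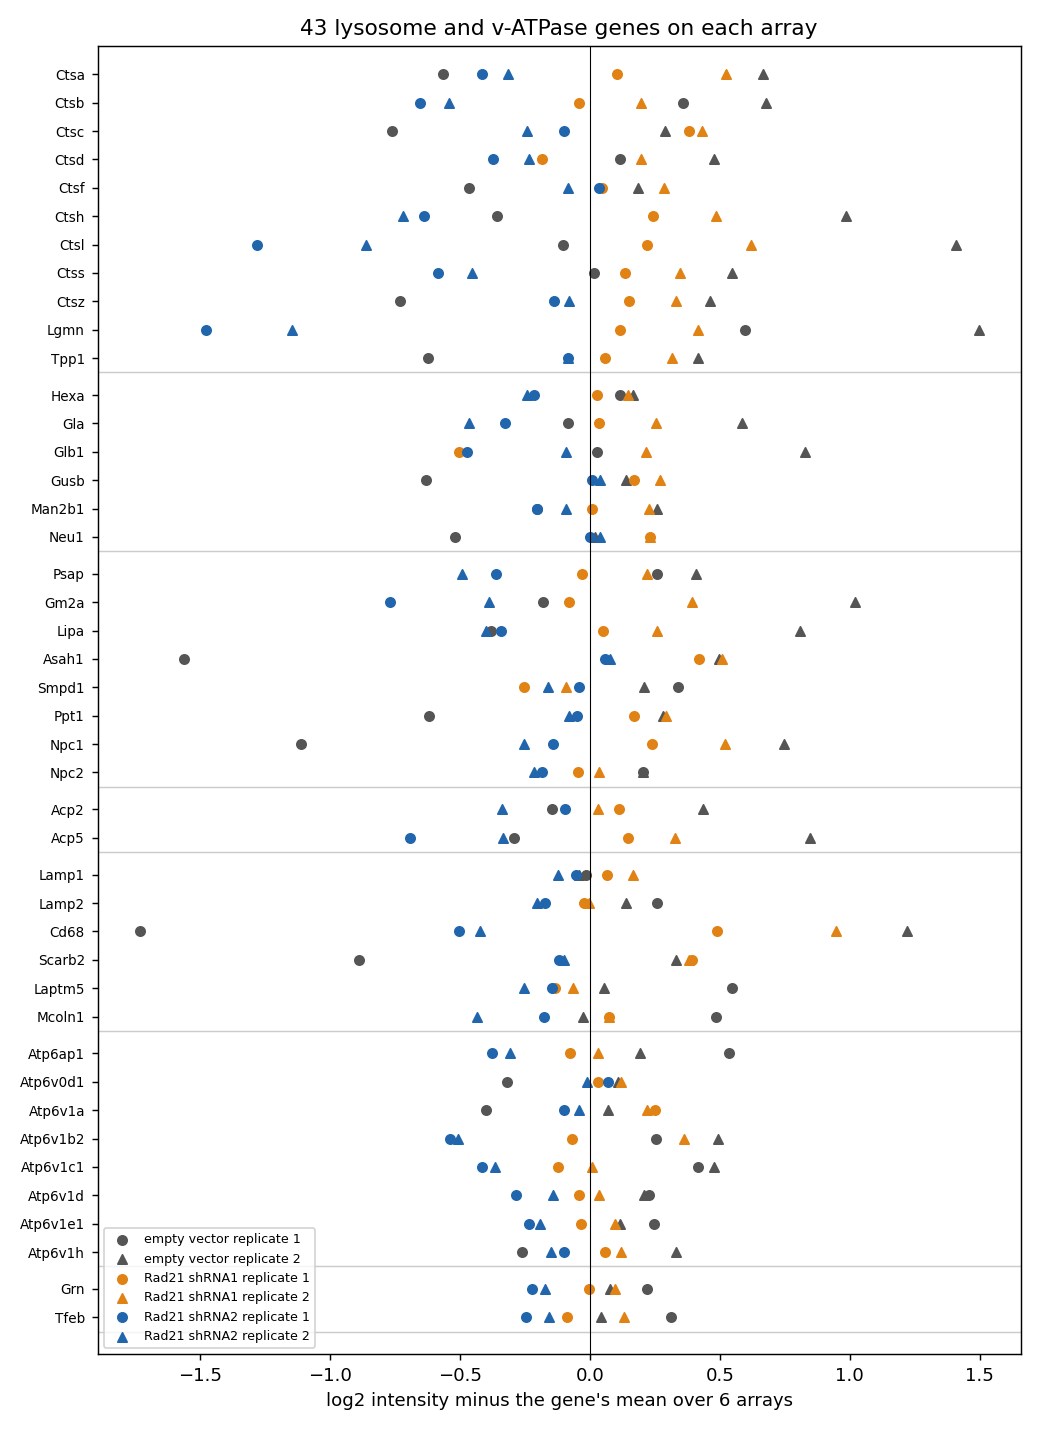
Log2 intensity of each of the 43 genes on each of the 6 arrays, minus the gene's mean over the arrays (x axis), with genes grouped by role from proteases at the top to Grn and Tfeb at the bottom. Grey, orange and blue are empty vector, shRNA1 and shRNA2, and circles and triangles are replicates 1 and 2; the blue points lie left of the orange ones in 40 genes, and the grey points are widely split in genes such as Cd68 and Asah1.

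The cathepsins and other proteases cut proteins inside the lysosome, and Lgmn, legumain, cuts after asparagine and processes several cathepsins. Lgmn had the largest difference from control of the list. Its log2 intensity was 10.89 and 11.79 with empty vector, 10.41 and 10.71 with shRNA1, and 8.82 and 9.15 with shRNA2. The 3 groups did not overlap, and shRNA2 was lowest. It fell 5.12-fold with shRNA2, by 2.36 ± 0.32 on the log2 scale (limma adjusted p = 0.0273). With shRNA1 the difference was -0.79 ± 0.32 (adjusted p = 0.544). The 2 shRNAs differed by 1.57 ± 0.32 (unadjusted p = 0.00301, adjusted p = 0.452).

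Ctsb encodes cathepsin B, an abundant cysteine protease. Its arrays read 13.12 and 13.44 with empty vector, 12.72 and 12.96 with shRNA1, and 12.11 and 12.22 with shRNA2. The groups again did not overlap and stood in the same order. Ctsb fell 2.17-fold with shRNA2, by 1.12 ± 0.18 on the log2 scale (limma adjusted p = 0.0401), and for both shRNAs together the difference was -0.78 ± 0.16 (adjusted p = 0.081). Ctsb has 3 further probe sets. On these, shRNA2 minus empty vector was -0.21, -1.46 and -1.27, the first of them reading 9.91 and 12.74 on the 2 control arrays.

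In all 11 proteases both shRNA2 arrays lay below both shRNA1 arrays, with a median difference of 0.68, the highest of the role groups. The largest after Lgmn was Ctsl, cathepsin L, which takes part in antigen processing, chosen for its size after values were seen. It read 12.04 and 13.55 with empty vector, 12.36 and 12.76 with shRNA1, and 10.86 and 11.28 with shRNA2. Both shRNA2 arrays were below the other 4, and the shRNA1 arrays lay between the controls. The difference between shRNAs was 1.49 ± 0.49 (unadjusted p = 0.0236, limma adjusted p = 0.834).

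Ctsh, cathepsin H, an aminopeptidase, differed by 1.04 and Ctss, cathepsin S, which trims the invariant chain of MHC class II, by 0.76 (shRNA1 minus shRNA2). Ctsa, the protective protein of a glycosidase complex, differed by 0.68. Ctsc, which activates the serine proteases of neutrophil granules, differed by 0.57. The smaller differences were 0.35 for Ctsz, 0.31 for the aspartic protease Ctsd, 0.27 for the tripeptidyl peptidase Tpp1 and 0.19 for Ctsf. In every protease empty-vector replicate 1 read lower than replicate 2, by 0.32 to 1.52.

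Glycosidases remove sugars from glycoproteins and glycolipids. Of the 6 measured, 5 lay lower with shRNA2 than with shRNA1 on both arrays, with a median difference of 0.23, and none passed a test. Neu1, a sialidase, read 8.51 and 9.05 with empty vector, 9.26 on both shRNA1 arrays, and 9.03 and 9.07 with shRNA2. Its shRNA1 arrays lay above all others, and shRNA2 overlapped the controls. Glb1, the lysosomal beta-galactosidase, read 10.84 and 11.64, then 10.31 and 11.03, then 10.34 and 10.72 in the same order of groups. The shRNA arrays overlapped each other, and the shRNA2 arrays lay below both controls.

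Averaged over both shRNAs, the difference from control was 0.37 ± 0.18 for Neu1 (limma adjusted p = 0.375) and -0.64 ± 0.31 for Glb1 (adjusted p = 0.376). Gla, an alpha-galactosidase whose window holds the longer motif at 2 positions, had the largest difference between shRNAs in this group, 0.54. Hexa, a beta-hexosaminidase subunit, differed by 0.31, Man2b1, an alpha-mannosidase, by 0.26, and Gusb, the beta-glucuronidase, by 0.20.

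The 8 genes for lipid breakdown and cholesterol export had a median difference of 0.46 between the shRNAs, and 7 lay lower with shRNA2 on both arrays. Psap, the precursor of the saposins that present lipids to hydrolases, read 13.41 and 13.56 with empty vector, 13.12 and 13.37 with shRNA1, and 12.79 and 12.66 with shRNA2. Its 3 groups did not overlap. With shRNA2 it was -0.76 ± 0.17 from control (limma adjusted p = 0.0831), and the shRNAs differed by 0.52 ± 0.17 (adjusted p = 0.805). A second Psap probe set gave -0.28 for shRNA2 minus empty vector, with controls of 11.54 and 13.13.

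Smpd1, the acid sphingomyelinase, was the exception of the group. It read 9.34 and 9.21 with empty vector, 8.75 and 8.91 with shRNA1, and 8.96 and 8.84 with shRNA2. All 4 shRNA arrays lay below the controls and overlapped each other. Both shRNAs together were -0.40 ± 0.13 from control (limma adjusted p = 0.221).

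The GM2 activator Gm2a differed by 0.74 between shRNAs, Npc1, which exports cholesterol from the lysosome, by 0.57, and the acid lipase Lipa by 0.53. The acid ceramidase Asah1 differed by 0.39, the thioesterase Ppt1 by 0.30, and Npc2, the soluble partner of Npc1, by 0.20. For Npc1 and Asah1 the control arrays differed by far more than this, by -1.86 and -2.06 (replicate 1 minus replicate 2).

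Both acid phosphatases lay lower with shRNA2 than with shRNA1. Acp5, the tartrate-resistant phosphatase used to stain osteoclasts, read 5.70 and 6.84 with empty vector, 6.14 and 6.32 with shRNA1, and 5.30 and 5.66 with shRNA2. Its shRNA2 arrays were the lowest of the 6, and it was among the dimmest genes of the list. Acp2, the general lysosomal acid phosphatase, read 7.77 and 8.35, then 8.03 and 7.95, then 7.82 and 7.58. Neither passed a test, with both shRNAs at -0.41 ± 0.33 for Acp5 (limma adjusted p = 0.603) and -0.22 ± 0.20 for Acp2 (adjusted p = 0.656). Against empty-vector replicate 1 alone both signs turned, to 0.16 and 0.074.

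The membrane proteins line the lysosome, and all 6 measured lay lower with shRNA2 than with shRNA1, with a median difference of 0.29. Laptm5, a lysosomal membrane protein of blood cells, read 13.55 and 13.06 with empty vector, 12.87 and 12.94 with shRNA1, and 12.86 and 12.75 with shRNA2. Lamp2, a structural membrane glycoprotein needed for autophagy, read 12.41 and 12.29, then 12.13 and 12.15, then 11.98 and 11.95. In both genes all 4 shRNA arrays were below the controls on the brightest probe set. On a further probe set of each, empty-vector replicate 1 lay below all 4 shRNA arrays, at 10.39 for Laptm5 and 11.27 for Lamp2. The mean of both shRNAs was -0.44 ± 0.18 from control for Laptm5 (limma adjusted p = 0.286) and -0.30 ± 0.12 for Lamp2 (adjusted p = 0.312).

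The macrophage sialomucin Cd68 had a difference between shRNAs of 1.17, the third largest of the list. Its arrays read 9.66 and 12.61 with empty vector, 11.88 and 12.34 with shRNA1, and 10.89 and 10.97 with shRNA2. The control arrays enclosed all 4 shRNA arrays, so no direction against control can be read for it. Scarb2, the receptor that carries glucocerebrosidase to the lysosome, differed by 0.50 between shRNAs, Mcoln1, a calcium channel whose window holds the longer motif, by 0.38, and Lamp1 by 0.21.

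The v-ATPase subunits had small control gaps, with a median absolute difference of 0.29 between control replicates. Atp6v1c1, a V1 subunit, read 12.07 and 12.13 with empty vector, 11.53 and 11.66 with shRNA1, and 11.24 and 11.29 with shRNA2. Each pair of replicates was close and the 3 groups did not overlap. It fell 1.78-fold with shRNA2, by 0.83 ± 0.15 on the log2 scale (limma adjusted p = 0.047); for shRNA1 the difference was -0.50 ± 0.15 (adjusted p = 0.35). The shRNA2 call lies close to the threshold and was lost with median centring (adjusted p = 0.0547) and with the dimmest 25% of genes left out (0.0565). Its 2 further probe sets gave -0.79 and -0.40 for shRNA2 minus empty vector.

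Atp6ap1, an accessory protein needed for assembly of the pump, read 12.26 and 11.92 with empty vector, 11.65 and 11.76 with shRNA1, and 11.35 and 11.42 with shRNA2. Its groups did not overlap either, and both shRNAs together were -0.55 ± 0.15 from control (limma adjusted p = 0.161). Atp6v1b2, the V1 subunit B, had the largest difference between shRNAs in the group and is given for that reason, after values were seen: it read 11.56 and 11.80, then 11.24 and 11.67, then 10.77 and 10.80. The difference was 0.67 ± 0.20 (unadjusted p = 0.0157, adjusted p = 0.719), and both shRNA2 arrays lay below the other 4.

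Of the 8 subunits and accessory genes, 7 lay lower with shRNA2 than with shRNA1 on both arrays, with a median difference of 0.28. The catalytic subunit Atp6v1a differed by 0.31, the stalk subunits Atp6v1e1 and Atp6v1d by 0.24 and 0.21, and the regulatory subunit Atp6v1h by 0.21. Atp6v0d1, which joins the V0 sector to the central stalk, was alone in overlapping, with 11.55 and 11.64 for shRNA1 and 11.59 and 11.51 for shRNA2. Against both controls, all 4 shRNA arrays were lower for Atp6ap1, Atp6v1c1, Atp6v1d and Atp6v1e1 on the brightest probe set. On a further probe set of Atp6v1c1, Atp6v1d and Atp6v1e1 they did not all lie below both controls.

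Grn encodes progranulin, a growth factor that is delivered to lysosomes, and Tfeb the transcription factor named above. Grn read 12.88 and 12.74 with empty vector, 12.66 and 12.76 with shRNA1, and 12.44 and 12.49 with shRNA2. Tfeb read 7.54 and 7.27, then 7.14 and 7.36, then 6.98 and 7.07. In both, the shRNA2 arrays lay below the other 4 and the shRNA1 arrays overlapped the controls. With shRNA2 the difference from control was -0.35 ± 0.15 for Grn (limma adjusted p = 0.305) and -0.38 ± 0.17 for Tfeb (adjusted p = 0.334), and the shRNAs differed by 0.24 and 0.22. RNA levels do not show the activity of TFEB, which is set largely by its phosphorylation and location.

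**Figure D4:**
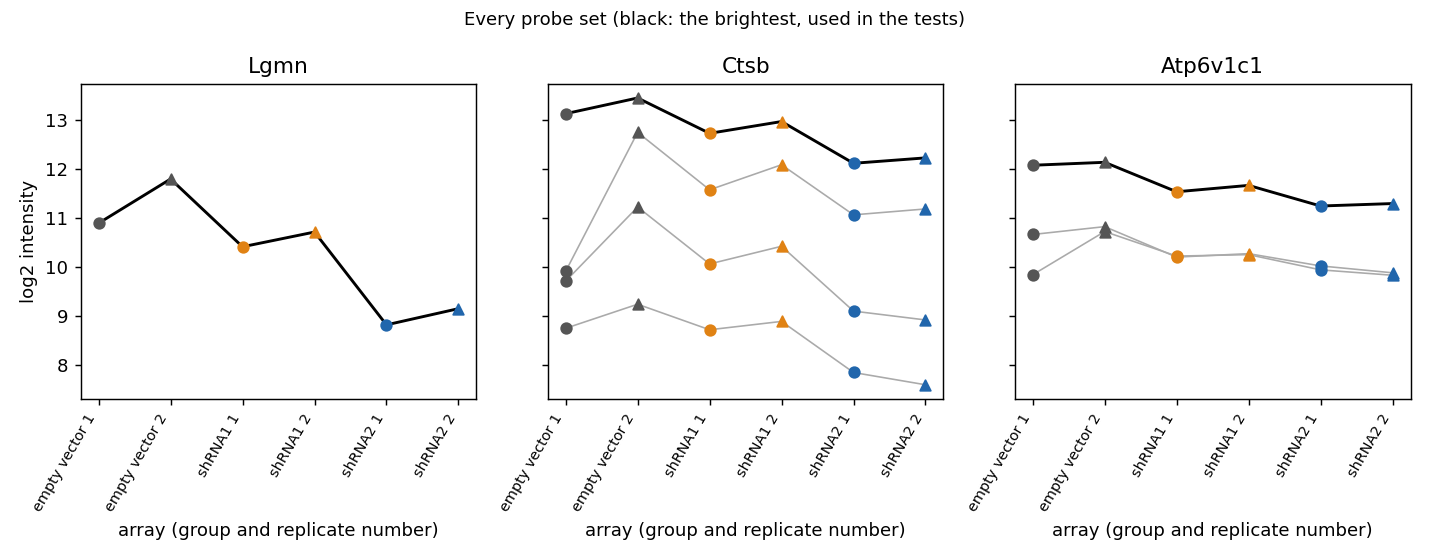
Log2 intensity (y axis) of every probe set of Lgmn, Ctsb and Atp6v1c1 on the 6 arrays (x axis); lines join the values of a probe set, and the black line is the brightest, which entered the tests. On the black lines the controls are highest and shRNA2 lowest in all 3 genes, whereas the second Ctsb probe set reads 9.91 and 12.74 on the controls.

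The comparisons with empty vector turned on which control array was used. Replicate 1 lay below replicate 2 in 32 of the 43 genes, with a median gap of -0.54, whereas 41.9% of all genes lay below, with a median of 0.085. The widest gaps, chosen after values were seen, were -2.94 for Cd68, -2.06 for Asah1 and -1.86 for Npc1. Against replicate 2 alone, 42 of the 43 genes were lower with shRNA2 and 15 fell (limma, where 5.41% of all genes fell), none rising. The 15 were Ctsa, Ctsb, Ctsh, Ctsl, Ctss, Lgmn, Gla, Psap, Gm2a, Lipa, Npc1, Acp5, Cd68, Atp6v1b2 and Atp6v1c1.

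Against replicate 1 alone, the array with the wide 3′ to 5′ gaps, 8 fell and 9 rose, where 11.2% and 12.5% of all genes did so. The 8 were Ctsb, Ctsl, Lgmn, Psap, Laptm5, Mcoln1, Atp6ap1 and Atp6v1c1, and the 9 were Ctsc, Ctsz, Gusb, Neu1, Asah1, Ppt1, Npc1, Cd68 and Scarb2. On the brightest probe set, Ctsb, Ctsl, Lgmn, Psap and Atp6v1c1 fell against either control. On another probe set, shRNA2 minus replicate 1 was 1.21 for Ctsb, 0.52 for Psap and 0.044 for Atp6v1c1. It was negative on the remaining probe sets, at -0.70 and -1.02 for Ctsb and -0.71 for Atp6v1c1. Of the others that fell against replicate 1, Mcoln1 was 0.50 on its other probe set, and Laptm5 was -1.49 and 0.70. Of those that rose, Ctsz was 0.69 and -0.096 and Neu1 1.07 and -0.071 on further probe sets. The other probe sets of Gusb, Ppt1 and Scarb2 stayed positive. Cd68 and Npc1 were called in opposite directions: Cd68 at -1.67 against replicate 2 and 1.27 against replicate 1, and Npc1 at -0.94 and 0.92. A lone control array is assumed in these fits to vary like the other groups.

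The other contrasts also depended on the control array. With shRNA1 against replicate 1, the 13 that rose were Ctsa, Ctsc, Ctsh, Ctsz, Tpp1, Gusb, Neu1, Asah1, Ppt1, Npc1, Cd68, Scarb2 and Atp6v1a, and the 2 that fell were Laptm5 and Atp6ap1 (limma, where 11.1% of all genes rose and 9.34% fell). Against replicate 2 none of the 43 passed, where 1.0% of all genes did, and 10 had an unadjusted p under 0.05, against 13.1%. For both shRNAs against replicate 1, the 11 that rose were those 13 without Ctsa and Ctsh, and the 6 that fell were Ctsb, Lgmn, Laptm5, Mcoln1, Atp6ap1 and Atp6v1c1, where 13.1% and 12.1% of all genes did so. Against replicate 2 the 8 that fell were Ctsb, Ctsh, Ctsl, Lgmn, Lipa, Acp5, Cd68 and Atp6v1c1, where 3.27% of all genes fell. On the brightest probe set, Ctsb, Lgmn and Atp6v1c1 fell against either control, and Cd68 was called in opposite directions. On another probe set of Ctsb, Laptm5 and Mcoln1, all 4 shRNA arrays lay above replicate 1.

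Leaving out any 1 of the shRNA arrays removed all 3 shRNA2 calls. The count over all genes also dropped then, from 351 to between 0 and 120. The adjusted p with shRNA2 over all alternatives ran from 0.00506 to 0.226 for Lgmn, 0.0146 to 0.332 for Ctsb and 0.0161 to 0.373 for Atp6v1c1, and the sign was negative for all 3 under each of them.

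**Figure D5:**
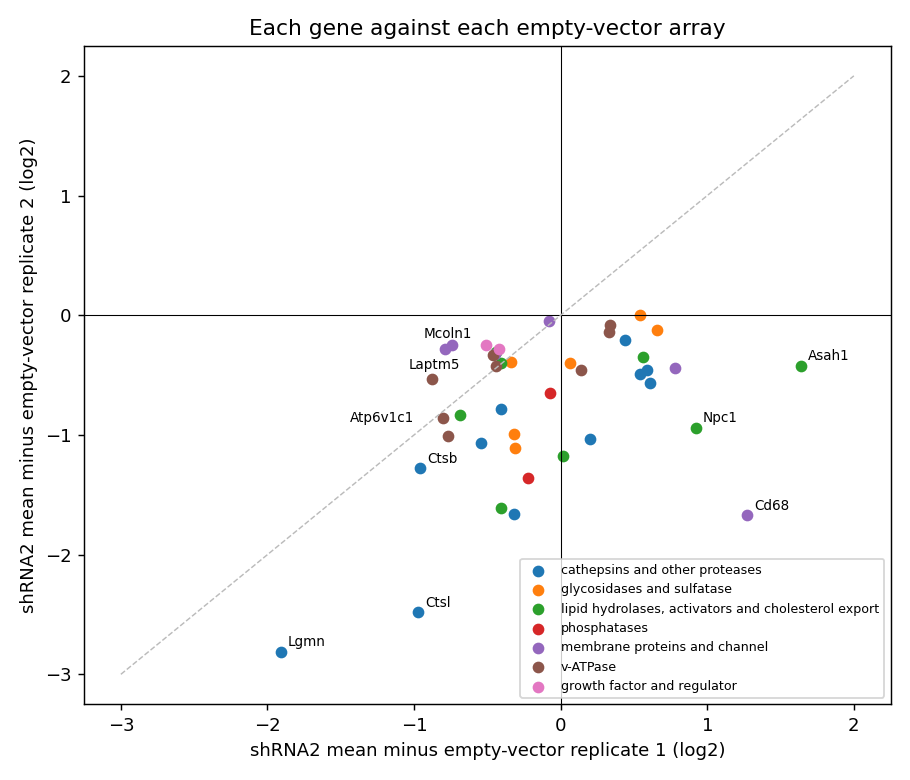
Difference of the shRNA2 mean from empty-vector replicate 1 (x axis) and from replicate 2 (y axis), log2, for the 43 genes, coloured by role; the dashed line marks equal differences. Lgmn, Ctsl, Ctsb and Atp6v1c1 are well below 0 on both axes, whereas Cd68, Npc1 and Asah1 are negative against replicate 2 and positive against replicate 1.

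Genes of the same pathway outside the list were examined for comparison. Of 91 such genes, 72 were measured. With both shRNAs 1 of the 72 fell and with shRNA2 2 fell, and none rose (limma), where 1.4% and 1.95% of all genes fell. These shares are near those of all genes. With shRNA2 against replicate 1 alone 14 rose and 15 fell, and against replicate 2 alone 1 rose and 11 fell, where 3.48% of all genes rose against replicate 2. The shares of all genes that rose or fell against replicate 1, and that fell against replicate 2, are given above. Both shRNA2 arrays lay below both shRNA1 arrays in 35 of 72 and above in 6, where 17.7% and 23.9% of all genes did so. Of the 72, 52 had a positive difference between shRNAs, against 45.0% of all genes. The median of the 72 was 0.12, beside -0.021 for all genes. By the share lower with shRNA2 on both arrays, the other lysosomal hydrolases came nearest to the listed genes, with 13 of 20. They were followed by 7 of 14 other membrane and transport genes, 10 of 25 sorting, fusion and regulation genes and 5 of 13 other v-ATPase genes.

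Atp6v0a1, a V0 subunit, read 9.81 and 9.06 with empty vector, 7.82 and 7.87 with shRNA1, and 7.53 and 7.23 with shRNA2. All 4 shRNA arrays lay more than 1 log2 unit below both controls. It fell by 1.82 ± 0.24 with both shRNAs (limma adjusted p = 0.0289) and by 2.06 ± 0.27 with shRNA2 (adjusted p = 0.0259), and the shRNAs differed by 0.47. Pld3, a lysosomal exonuclease, read 11.38 and 11.93, then 10.22 and 11.06, then 9.64 and 9.70. It fell by 1.99 ± 0.32 with shRNA2 (adjusted p = 0.0394).

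In the lists with no call, the smallest p-values for both shRNAs belonged to genes of mixed direction. Slc11a1, a divalent metal transporter of phagosomes, differed from control by 1.30 (limma adjusted p = 0.108), and Tpcn2, a cation channel, by -0.91 (adjusted p = 0.117). Gnptab, which makes the mannose 6-phosphate tag that sorts hydrolases to lysosomes, differed by 1.07 (adjusted p = 0.102), and Lamtor4, of the Ragulator complex, by 0.60 (adjusted p = 0.0878).

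Markers of lysosome-rich cells were also lower with shRNA2 than with shRNA1. Of 18 measured monocyte and macrophage markers, 15 lay lower with shRNA2 than with shRNA1 on both arrays, where 17.7% of all genes did so. The median difference of the 18 was 0.68. Their summed intensity was 38045 and 65965 with empty vector, 67152 and 68629 with shRNA1, and 52872 and 51158 with shRNA2. With shRNA2 5 of them fell and 1 rose (limma), where 1.95% of all genes fell and 0.88% rose. Their median difference with shRNA2 was 0.28 against empty-vector replicate 1 alone and -0.39 against replicate 2 alone, beside -0.061 and 0.029 for all genes. The 5 that fell with shRNA2 were the scavenger and clearance receptors Mrc1, Msr1, Mertk, Marco and Cd36, at log2 differences of -2.64, -1.67, -3.30, -2.34 and -4.06 from control. Fcgr1, an Fc receptor, rose by 2.67. Csf1r, the M-CSF receptor, stood higher on all shRNA arrays than on the controls, with 12.48 and 12.31 for shRNA1, 11.99 and 11.89 for shRNA2 and 11.27 and 11.65 for empty vector. Adgre1, the F4/80 antigen, read 9.98 and 11.66 with empty vector, 10.59 and 11.03 with shRNA1, and 9.63 and 9.70 with shRNA2. Arrays do not give values of 0, and the dimmest of the list, Cd163, read 3.41 to 3.75.

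Osteoclast markers summed to 5526 and 6910 with empty vector, 3961 and 4720 with shRNA1, and 2526 and 2244 with shRNA2, over 9 measured of 10. They include the cathepsin Ctsk, which is also counted above among the other lysosomal hydrolases. Ctsk read 10.36 and 12.05, then 10.71 and 11.25, then 8.92 and 8.80 (log2). Part of the lower sum with shRNA2 is thus that of a lysosomal gene. Of these 9, 1 fell with both shRNAs and 1 with shRNA2 (limma), where 1.4% and 1.95% of all genes fell. Ocstamp, needed for osteoclast fusion, was called lower among them. Both shRNA2 arrays lay below both shRNA1 arrays in 5 of the 9 and above in none, where 17.7% and 23.9% of all genes did so. Of 12 measured neutrophil markers, 6 rose with shRNA2 (limma), where 0.88% of all genes rose. Their median difference with shRNA2 was 1.65 against replicate 1 alone and 2.97 against replicate 2 alone. Their sums were 42788 and 29587 with empty vector, 87180 and 70217 with shRNA1, and 92773 and 90603 with shRNA2. On both arrays 2 of the 12 lay lower and 5 higher with shRNA2 than with shRNA1, where 17.7% and 23.9% of all genes did so. Erythroid markers, 7 measured of 11, summed to 7102 on empty-vector replicate 1 and to between 1033 and 1644 on the other 5 arrays. Mast cell and basophil markers (11 of 11) summed to 36882 and 52795, then 23607 and 32397, then 27614 and 29421. Megakaryocyte markers (8 of 9) summed to 20658 and 18597, then 7873 and 14855, then 8626 and 8867. Dendritic cell markers (10 of 11) summed to 3686 and 4433, then 2763 and 1935, then 1833 and 1423. In these last 3 lists the controls were the highest pair. With both shRNAs 2 mast cell and basophil, 1 megakaryocyte and 0 dendritic cell markers fell (limma), where 1.4% of all genes fell. With shRNA2 2, 1 and 1 fell in the same order, where 1.95% of all genes fell, and none rose in either contrast. The lysosome and v-ATPase genes themselves summed to 139574 and 188365, then 142896 and 163431, then 112211 and 114325. The part of these cell populations in the lysosomal differences was not tested.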

How the data were processed

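The authors deposited intensities of 22690 probe sets on 6 arrays. They were processed with RMA, according to the submitters' processing notes. This method corrects background, quantile-normalizes and summarises probes, and a shift in total RNA would not show. Its version, the software and the build of the array design were not given in the sources used here. Deposited intensities were on a linear scale, from 4.96 to 20614.6, with array medians from 100.2 to 104.9, and log2 was taken here with no pseudocount, filter or further normalization. The number of arrays limits the precision.

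Of the probe sets, 20393 had 1 gene in the platform annotation, 691 several, and 1606 were not listed; 64 control probe sets, 13 with a gene, were left out. The remaining 20380 gave 12393 genes, each read from its brightest probe set, 4956 having 2 or more. Names were checked against RefSeq's gene table (GRCm38.p6), which held the Entrez number of 20351 probe sets and updated 0 symbols.

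Groups came from the sample titles. One limma fit (version 3.58.1, R 4.3.3; lmFit and eBayes, 3 residual and 2.91 prior degrees of freedom) of the 3 groups gave each contrast, two-sided, with Benjamini-Hochberg adjustment over all 12393 genes and a threshold of 0.05. It was tested on simulated data. Values on all arrays were to be given for genes past the threshold and for the 2 smallest p-values (both shRNAs) in each role; from other pathway lists, for called genes or otherwise the 2 smallest p-values. The list, the other lists and the tests were chosen with earlier results of these data known. Alternatives were array weights, an intensity trend, robust settings, dim-gene filters (25% and 50%), quantile normalization, median centring, the mean of all probe sets, a replicate block, leaving out each array and, added later, the 4 shRNA arrays alone. Promoter windows were RefSeq's. Plots used matplotlib 3.10.9 in Python 3.11.15.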

Additional observations from a re-analysis of the deposited data

How the results depend on the processing

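The median difference of the 43 genes for both shRNAs, -0.28, stayed negative under the 15 alternatives run for it, from -0.35 without empty-vector replicate 1 to -0.039 without replicate 2. The median of all genes was 0.018 without replicate 1 and -0.069 without replicate 2. In the latter setting the list did not lie below all genes. Counts of called genes were less stable. With a replicate block, 1 of the 43 was called for both shRNAs (Lgmn) in place of 0, and the shRNA2 call of Atp6v1c1 was lost (adjusted p = 0.0574); the replicate numbers are only labels, the deviations of same-numbered arrays correlating over genes at 0.199 (empty vector and shRNA1), 0.148 (empty vector and shRNA2) and 0.578 (the shRNAs), and with 2 numbers this does not make pairs. For shRNA2, array weights, leaving out the dimmer 50% of genes, and the mean of all probe sets each left 1 call of 3, and array weights gave 1 (Lgmn) in place of 0 between the shRNAs. Median centring and leaving out the dimmest 25% of genes also lost Atp6v1c1 (0.0547 and 0.0565). Leaving out 1 array at a time gave 0 to 17 calls for both shRNAs, 0 to 15 for shRNA1 and 0 to 17 for shRNA2. The sign for both shRNAs turned for 2 named genes without empty-vector replicate 2. The leave-out values ran from -0.99 to 0.16 for Acp5 and from -0.51 to 0.074 for Acp2. Signs also turned for genes of the list outside this named set. Of all 43, 29 were negative for both shRNAs in the main fit, 40 without empty-vector replicate 1 and 22 without replicate 2. The causes were not tested. Of the other comparisons of 27 named differences with alternatives, 376 kept direction and side of the threshold, 12 newly passed it and 21 no longer did. Over all genes, array weights cut the calls from 264 to 51 for both shRNAs, from 29 to 8 for shRNA1 and from 351 to 160 for shRNA2, raising them from 0 to 98 between the shRNAs; leaving out the dimmer 50% of genes gave 113, 3 and 180, the intensity trend 59 and quantile normalization 17 for shRNA1, and leaving out arrays 3 to 3121, 0 to 2534 and 0 to 2941. With 2 arrays a group and 3 residual degrees of freedom, small differences could not be called.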

Other observations

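Probe sets of the same gene disagreed on how far the control arrays lay apart. Of the 43 genes, 23 had 2 or more probe sets, 80 probe sets counting all 43 genes, and in 8 genes the difference between empty-vector replicates 1 and 2 had both signs. The median range of that difference within a gene was 0.89 log2 units. For Gm2a it was -1.20 on the brightest probe set and -3.13 on the other, for Psap -0.14 and -1.59, for Ctsb -0.32 on the brightest and -2.83 on the second, and for Laptm5 0.49, 0.87 and -1.20. The shRNA1 minus shRNA2 differences of those probe sets were closer: 0.74 and 0.95 for Gm2a, 0.52 and 0.67 for Psap, 0.68 and 0.70 for Ctsb, and 0.10, 0.13 and 0.14 for Laptm5. The remaining Ctsb probe sets gave 1.23 and 1.08. Probe sets of Atp6v1b2 gave 0.67, 0.76 and, on a dim one, 0.12. The range of this difference was not summarised over all 23 genes. These genes were chosen after their values were seen.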
